A study of Rattus norvegicus with 20 samples.

Results

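Messenger RNA for the proteins of the cytoplasmic ribosome was measured on rat Affymetrix arrays in cultured neural progenitors and in the same kind of cells after treatment. The genes are all those on the array whose probe set carries a single rat symbol that begins with Rpl or Rps and a number, or is Rplp0, Rplp1 or Rplp2 with any suffix, leaving out the Rps6k kinases and Rpl19l4. This choice by name gave 42 genes of the 4736 that have a probe set with a single symbol, 13 of the small subunit and 29 of the large subunit. They are read by 61 probe sets, and where a gene had several, the one with the highest mean was taken. Standard names are carried by 36 of them. The symbols of the other 6 (Rpl3l, Rpl36al1, Rplp1l3, Rps27l, Rps2-ps1 and Rps4x-ps9) name a paralog or a pseudogene, whose sequences can be close to those of the parent gene, so their signal is uncertain in origin. On the current rat assembly the located members lie on 17 chromosomes.

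The groups are low-density CCg progenitors (LD, 3 cultures), high-density progenitors (HD, 3 cultures), low-density CCg progenitors given FBS, a treatment the labels describe as yielding astrocytes (FBS, 4 cultures), and low-density CCg progenitors given RA/Fsk, described as yielding neurons (RA/Fsk, 4 cultures). FBS is the usual abbreviation of fetal bovine serum and RA/Fsk of retinoic acid with forskolin, but the labels spell out neither these nor CCg, and give no dose, time, strain or age. CCg is not in the labels of the HD group, so density and CCg cannot be told apart. A culture here is a label number. Arrays that share a number were averaged, which took 20 arrays to 14 cultures. Nothing in the labels tells if different numbers mean separate preparations of cells. The p-values then reflect only how far these samples scatter, which may be technical scatter.

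A ribosome is built from ribosomal RNA and a large set of small basic proteins, one copy of nearly each, divided between a small subunit that reads the messenger RNA and a large subunit that joins amino acids. Growing cells spend much of their transcription on these genes, and their messenger RNAs are known for a pyrimidine tract at the very start, the terminal oligopyrimidine or TOP motif, through which the TOR kinase controls their translation. Neural progenitors are dividing cells, and the output of the ribosome pathway is known to change when they leave the cell cycle and differentiate.

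Start sites are shown for members the results turn on, both with and without a tract, since the tract at the start is the feature these genes are known to share. The lines give 15 bases before and 15 from the annotated start, read from the RefSeq promoter table of build GRCr8, which held 36 of the 42 members. That start was the first base of the RefSeq gene record for 18 of the 36 and another base for the rest, so it may not be where transcription begins. Capitals mark the longest run of a C followed by at least 4 pyrimidines that begins within 10 bases of the start on either side. Shorter runs, and runs that begin further out, are left in lower case. The Rps3 line holds a run of the latter kind, which was not counted as a tract.
Rpl35a (chr11:81235007-81235036, minus strand): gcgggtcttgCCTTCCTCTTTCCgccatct
Rpl35 (chr3:43165907-43165936, minus strand): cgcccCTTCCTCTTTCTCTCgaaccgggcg
Rpl23 (chr10:83272170-83272199, minus strand): actaaCTTCCTTTCTgactctttccggacg
Rplp0 (chr12:46718376-46718405, minus strand): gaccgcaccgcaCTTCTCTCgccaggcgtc
Rpl22 (chr5:168117946-168117975, plus strand): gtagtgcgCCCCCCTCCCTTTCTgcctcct
Rps10 (chr20:5700730-5700759, minus strand): gccgcgcacgCCCCTTCCTTTCCagcctcc
Rps15 (chr7:10068101-10068130, minus strand): cgctgacaccgCTTCCTTTTCCCagcagcc
Rps3 (chr1:163195762-163195791, minus strand): ttcctttcagcggcgcgcggcagcaagatg
Rpl3 (chr7:113507976-113508005, minus strand): ccagcgcctgctcgatctctatcggcggcg
Rpl41 (chr7:1563483-1563512, minus strand): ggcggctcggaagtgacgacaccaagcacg

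Such a tract lay at the start of 22 of the 36 members (61.1%), against 27.8% of all 33469 windows in the table. The motif CCGGAAG, on either strand and anywhere from 250 bases before to 50 after the start, was in 9 of the 36 (25%) and in 8.75% of all windows. TATAAA on the coding strand was in 3 of the 36 (8.33%) and in 8.8% of all windows. No tract that begins within 10 bases of the annotated start was found for 14 members, Rps3, Rpl3, Rps27l and Rpl41 among them. A pyrimidine run further out, as in Rps3, does not count here. These matches are descriptions of letters in a window.

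The arrays had been scaled alike before deposit, with trimmed means between 200.3 and 200.5 intensity units, and their medians ran from 41.0 to 57.5. Of 9 measured astrocyte markers, 6 were higher in FBS and 3 in RA/Fsk than in LD by limma, and their summed intensity was 2518 to 3133 in LD, 3952 to 5447 in HD, 6715 to 9255 in FBS and 8445 to 9898 in RA/Fsk. The sums rest mostly on the brightest probe sets and do not rank the groups. Aldoc and S100b were further above LD in RA/Fsk (1.77 and 2.85) than in FBS (1.01 and 2.54). Mt3, Agt, Glul and Slc1a3 were the reverse (0.16, 0.94, 1.40 and 0.20 in RA/Fsk against 1.22, 2.03, 1.76 and 1.97 in FBS). In HD, Aldoc alone of the 9 was higher. Of 9 measured neuron markers, none was higher in RA/Fsk than in LD in limma, also at an unadjusted p under 0.05, and 1, Gap43, was lower. Their sums were 1315 to 1631 in RA/Fsk, 1516 to 1595 in LD, 1507 to 2310 in HD and 1565 to 1768 in FBS. With FBS, the group labelled astrocytes, 2 neuron markers were higher, Chgb by 3.79 and Nefm by 2.26 on the log2 scale. The neuronal label of the RA/Fsk group was thus not borne out by these markers, and the group is called by its treatment. Of 7 progenitor markers, 5 were lower in FBS and 1 in RA/Fsk. Of 6 oligodendrocyte lineage markers, Mbp (2.45) and Cnp (0.78) were higher in RA/Fsk, and in FBS Mbp was higher (1.46) and Pdgfra lower (-2.51). Their sums were 1752 to 2399 in LD, 1649 to 2155 in HD, 1339 to 1749 in FBS and 2271 to 3692 in RA/Fsk. Sums for microglia and leukocytes (6 markers), fibroblasts (7) and endothelium (3) stayed at or below 284 in every culture, and Gfap, Tubb3 and Sox2 were not measured. Sums for 3 Schwann and neural crest markers (Sox10, Pmp22 and Ngfr) were higher, at 1520 to 1606 in LD, 1459 to 1855 in HD, 1609 to 2295 in FBS and 1228 to 2382 in RA/Fsk. None of these passed against LD in limma. The part of cell composition in the results below was not tested, and in bulk RNA fewer cells of a type and less RNA per cell cannot be told apart.

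With FBS, ribosomal protein messenger RNA fell across both subunits. Against LD, 38 of the 42 genes were lower at an adjusted p under 0.05 (limma, Benjamini-Hochberg over 8740 probe sets), where 12.3% of all probe sets were lower. None was higher, also at an unadjusted p under 0.05, while 13.2% of all probe sets were higher. The median log2 difference of the members was -0.91, or 53.1% of the LD level, beside -0.09 over all probe sets and -0.16 over the 784 other probe sets among the brightest 10%. In 17 of the 42 genes the fall was at least 2-fold. That share was not counted over all probe sets, where it can be at most the 12.3% that were lower. All FBS cultures were below all LD cultures for 38 genes, against 18.5% of probe sets. They lay below all the other cultures for 34 of the 42 genes, an arrangement found in 5.55% of probe sets.

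**Figure D1:**
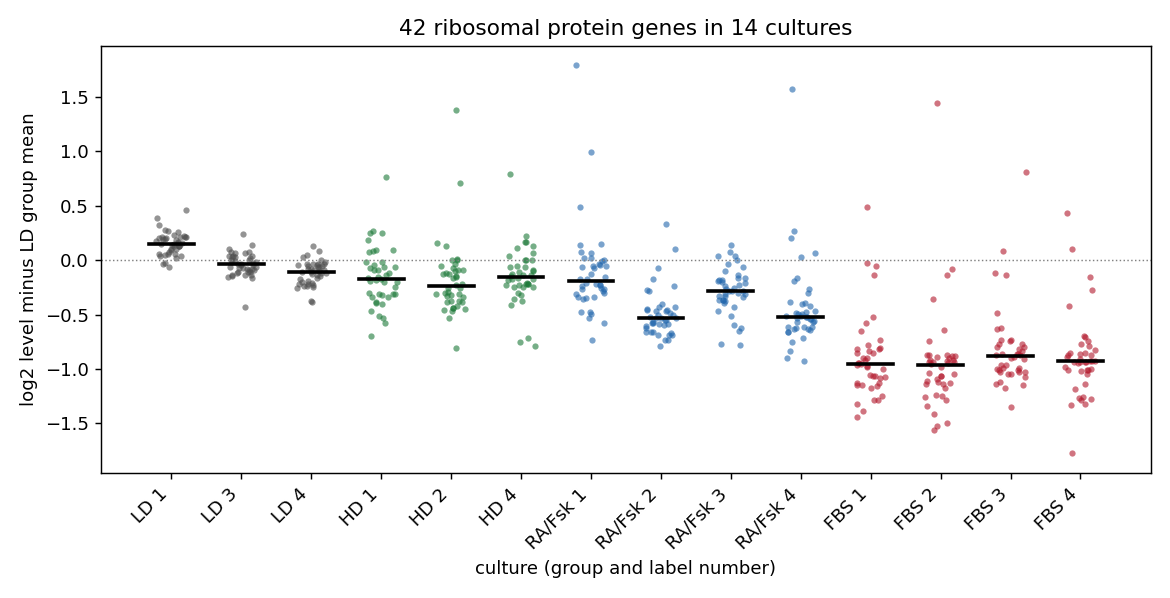
Log2 level of each of the 42 genes (points) in each of the 14 cultures, as the difference from the mean of the LD group, with a bar at the median of each culture. The medians of the 4 FBS cultures lie between -0.97 and -0.88, those of the RA/Fsk cultures between -0.53 and -0.19, and those of the HD cultures between -0.24 and -0.16. The single points far above the rest are mostly Rplp1l3, a gene near the low end of the scale.

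In the small subunit, 12 of 13 genes fell with FBS and the median difference was -0.88. Rps3, a protein at the messenger RNA entry channel, read 9275, 7994 and 8159 in LD, 7808, 8246 and 9505 in HD, 4483, 4386, 5091 and 4180 in FBS, and 6015, 5712, 6717 and 5146 in RA/Fsk. All FBS cultures lay below every other culture, and all RA/Fsk cultures lay between them and the progenitors. Its log2 difference from LD was -0.90 ± 0.13 (SE; 4 against 3 cultures; limma adjusted p = 4.22e-05).

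Rps6, the protein that the S6 kinases phosphorylate, read 7422, 6472 and 6134 in LD, 6578, 5307 and 6051 in HD, 4230, 3581, 3649 and 3542 in FBS, and 5252, 4887, 5302 and 4780 in RA/Fsk. FBS was again apart from all others, and culture 1 stood above the other 3 of that group. The FBS difference was -0.83 ± 0.12 (limma adjusted p = 5.3e-05). Rps9, Rps23 and Rps29 fell further, by 1.09, 1.04 and 1.17 on the log2 scale, and Rps15, Rps3a and Rps16 by 0.88, 0.85 and 0.82. The largest fall of all members was that of the probe set annotated to Rps4x-ps9, a processed copy of Rps4x.

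The Rps4x-ps9 probe set read 2115, 2219 and 2169 in LD, 2141, 1771 and 2522 in HD, 795, 752, 974 and 630 in FBS, and 2109, 1482, 1932 and 1414 in RA/Fsk. FBS cultures were far below all others, at 36.1% of the LD level. The RA/Fsk cultures were all below LD as well, culture 1 only just (2109 against 2115), and HD overlapped both. The difference was -1.47 ± 0.17 (limma adjusted p = 5.71e-06). The array cannot separate a processed copy from its parent with certainty. The 2 probe sets that name Rps4x together with this copy gave smaller differences, -0.91 and -0.99.

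In the large subunit, 26 of 29 genes fell with FBS, with a median of -0.96. Rpl35a, a protein needed for maturation of the large subunit RNA, read 4988, 4456 and 3779 in LD, 3469, 3203 and 3732 in HD, 1791, 1482, 1710 and 1737 in FBS, and 3151, 2527, 3158 and 2296 in RA/Fsk. No group overlapped with LD, and the FBS cultures were the lowest. The FBS level was 38.3% of LD, a difference of -1.38 ± 0.14 (limma adjusted p = 1.57e-06).

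Rpl35, which sits at the exit of the peptide tunnel, read 9199, 9296 and 8247 in LD, 6760, 6577 and 8118 in HD, 3412, 3151, 4099 and 3558 in FBS, and 7324, 6175, 7787 and 5626 in RA/Fsk. FBS was below every other culture, and the RA/Fsk and HD cultures overlapped. The FBS difference was -1.33 ± 0.14 (limma adjusted p = 2.36e-06). Rpl21 followed at -1.21 ± 0.13 (limma adjusted p = 3.7e-06) and Rpl3, a core protein near the peptidyl transferase centre, at -1.20 ± 0.17 (limma adjusted p = 3.52e-05).

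Rplp0, the base of the acidic stalk that recruits elongation factors, read 18335, 14355 and 14939 in LD, 12722, 14071 and 14765 in HD, 8104, 8570, 10188 and 9706 in FBS, and 15788, 11741, 16679 and 12054 in RA/Fsk. FBS alone stood apart, and the other groups overlapped. Its fall was among the smaller ones, at -0.79 ± 0.15 (limma adjusted p = 0.000904). With quantile normalization in place of the deposited scaling, 32 members in all were lower and the median was -0.56. Rplp0, Rps6, Rps16, Rpl19, Rpl22 and Rpl31 did not pass there, with differences of -0.35 to -0.21. Over the 27 settings, 30 members passed in every one, 8 in some and 4 in none.

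**Figure D2:**
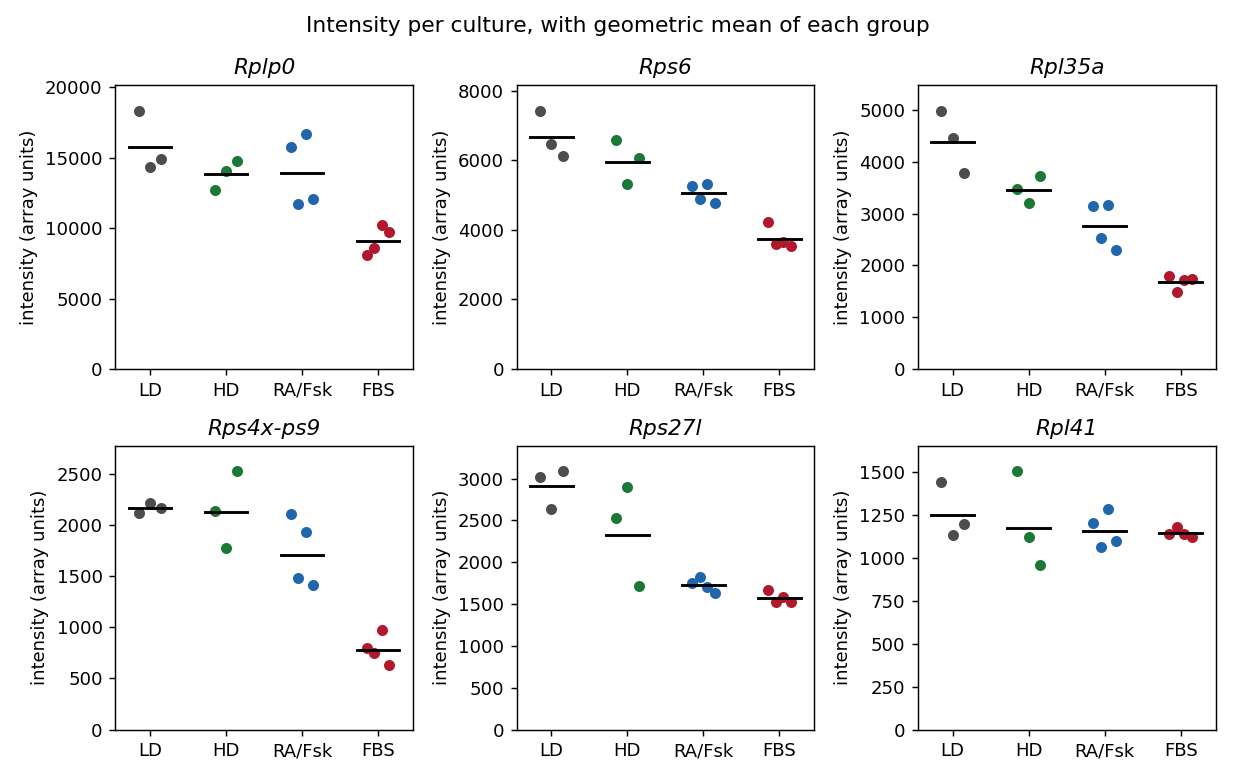
Intensity, in array units on a linear axis from 0, of 6 ribosomal protein genes in each culture (points), with the geometric mean of each group (bar). FBS cultures are lowest for Rplp0, Rps6, Rpl35a and Rps4x-ps9, Rps27l is low in FBS and RA/Fsk alike, and the groups overlap for Rpl41.

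Among the 36 standard names, 35 fell with FBS and Rpl41 was the exception. Rpl41, the smallest protein of the ribosome, read 1440, 1131 and 1199 in LD, 1502, 1121 and 960 in HD, 1140, 1178, 1137 and 1120 in FBS, and 1202, 1062, 1286 and 1096 in RA/Fsk. All 4 groups overlapped. The FBS difference was -0.13 ± 0.14 (limma adjusted p = 0.58), with a 95% interval of -0.43 to 0.17, which does not reach the median of the members. Whether Rpl41 differs from the other members was not tested as such, and a single probe set reads it.

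The other 3 that did not pass were all named for a copy or paralog. Rpl3l, the striated muscle paralog of Rpl3, read 46.3 to 87.3 in LD and 47.3 to 67.1 in FBS, a difference of -0.05 (limma adjusted p = 0.926). Rpl3l and Rpl3 thus had different values on this array, -0.05 against -1.20, with Rpl3l close to the array medians. Rps2-ps1 (2.7 to 6.3 in LD and FBS together) and Rplp1l3 (2.3 to 7.87 in LD and 8.3 to 21.8 in FBS) were near the low end of the scale. A change in level could not be detected reliably there. Both had p-values above the threshold in FBS, with differences of -0.18 (limma adjusted p = 0.641) and 0.79 ± 0.45 (limma adjusted p = 0.231). Rplp1l3 was the 1 member with all FBS cultures above all LD cultures, an arrangement of 1480 of all 8740 probe sets.

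Some members were dim on their single-symbol probe set although the gene has a second one shared with copies. Rpl5, which carries the small 5S RNA into the large subunit, read 128, 96.7 and 105 in LD and 74.5, 56.2, 63.4 and 89.4 in FBS. The 2 groups did not overlap, and the difference was -0.61 (limma adjusted p = 0.0437), which passed in 14 of 27 settings. The probe set that names Rpl5 together with Rpl5l1 gave -1.10 ± 0.12 (limma adjusted p = 2.54e-06). For Rpl30 the values were -0.85 (limma adjusted p = 0.0248) on its own probe set and -1.06 on the shared one, and for Rps24 -0.73 and -0.97. Of all 38 probe sets that name several ribosomal protein genes, 37 were lower in FBS with a median of -1.06. Of the 19 further probe sets of the members, 17 were lower, also with a median of -1.06, and the 2 that were not belong to Rpl3l and Rps2-ps1.

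Whether the genes differ in the size of the fall was not tested. Among the standard names the standard deviation of the FBS difference over genes was 0.22, beside a median standard error of 0.14, and the middle 50% of genes lay between -1.09 and -0.85. Different probe sets of one gene also differed by such amounts, at -0.85 and -1.21 for Rpl24 and -1.20 and -0.89 for Rpl3, so spread over genes and over probe sets cannot be told apart. For the RA/Fsk difference the standard deviation over genes was 0.13, no larger than the median standard error of 0.14. By the tract at the start, the 21 standard names with it had a median FBS difference of -0.95 and the 11 without it -0.99.

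**Figure D3:**
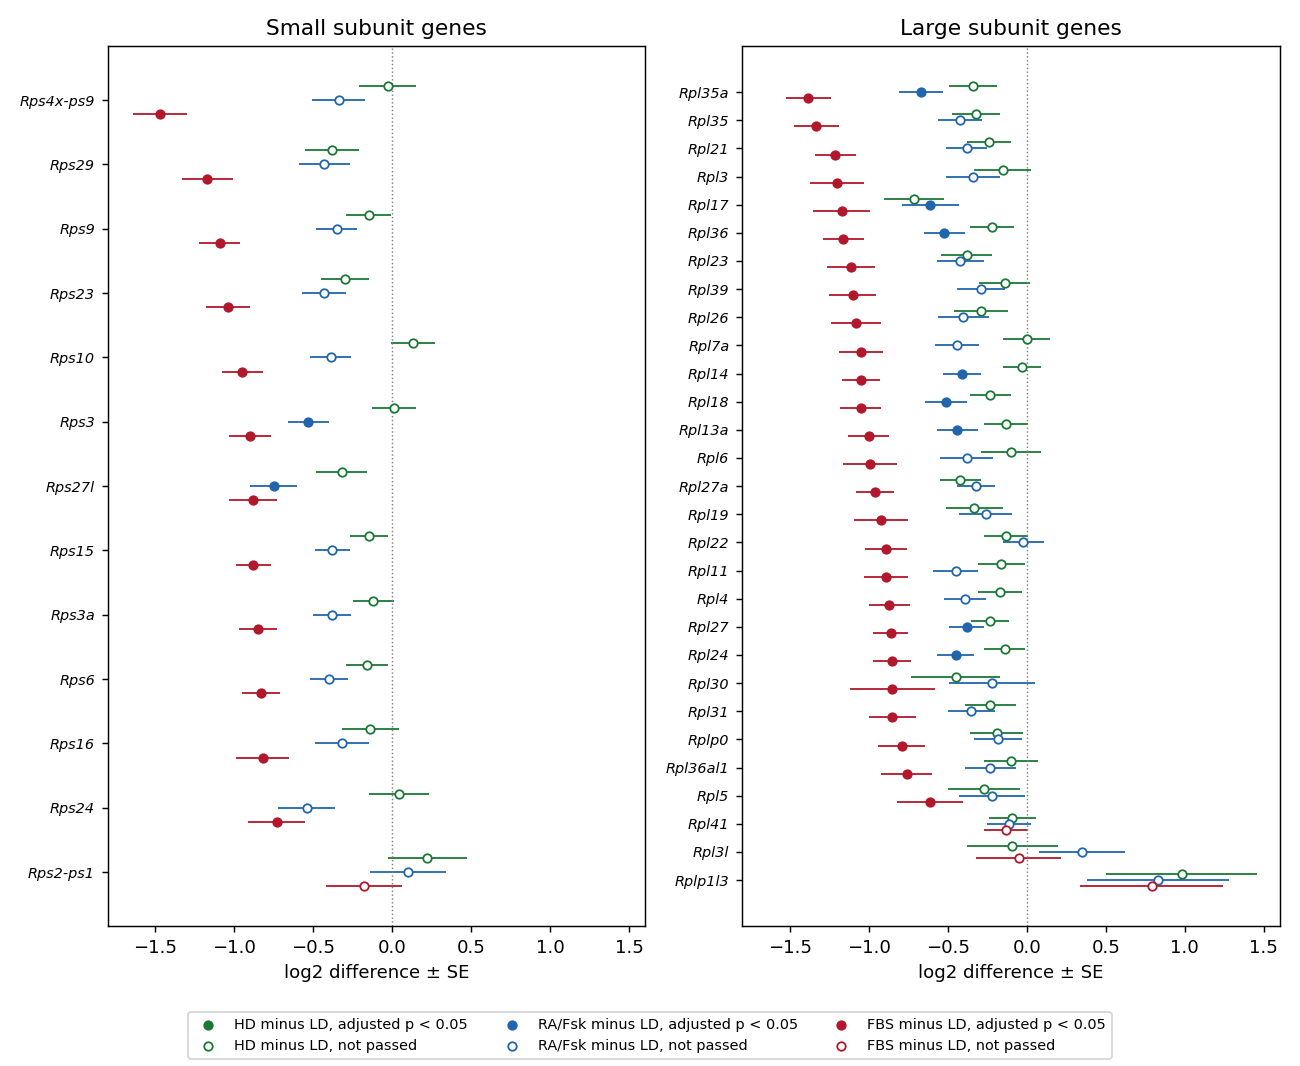
Log2 difference from LD, with its standard error, for each ribosomal protein gene with HD (green), RA/Fsk (blue) and FBS (red), small subunit on the left and large subunit on the right, sorted by the FBS difference. Filled points passed an adjusted p of 0.05 in limma. FBS is filled for 38 genes, RA/Fsk for 10 and HD for none.

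With RA/Fsk, fewer of the genes passed the test and the median shift was smaller. The median difference from LD was -0.38, or 76.8% of the LD level, beside -0.05 over all probe sets. Of the 42 genes, 10 fell at an adjusted p under 0.05 (limma), where 3.54% of all probe sets did, and none rose, against 4.71%, also at an unadjusted p. At an unadjusted p under 0.05, 28 of the 42 were lower, beside 968 of all 8740 probe sets. All RA/Fsk cultures were below all LD cultures for 21 genes, against 8.39% of probe sets. The FBS and RA/Fsk comparisons share the LD cultures, so their values are given side by side and not as independent results.

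The 10 genes that fell were Rps27l and Rps3 of the small subunit and Rpl13a, Rpl14, Rpl17, Rpl18, Rpl24, Rpl27, Rpl35a and Rpl36 of the large subunit. Rpl35a fell by 0.67 on the log2 scale (SE 0.14, limma adjusted p = 0.00613). Rps3 fell by 0.53 (SE 0.13, limma adjusted p = 0.0152), Rpl36 by 0.52 and Rpl18 by 0.51. Rpl17, Rpl24, Rpl13a, Rpl14 and Rpl27 had adjusted p-values between 0.0341 and 0.0482. The count of 10 was 2 without LD culture 1, 3 without LD culture 3, 4 without RA/Fsk culture 2, 5 without RA/Fsk culture 4, 16 without RA/Fsk culture 1, and 5, 6 and 5 without FBS cultures 1, 2 and 3, which enter the fit through the shared spread. It was 4 with quantile normalization, where the median was -0.20, 4 with median centring, 2 without the intensity trend, 3 with array 3r alone for FBS culture 3, 19 with each array as a sample, and 22 without the dimmer 50% of probe sets. With the label number as a replicate block, under which LD and RA/Fsk are paired, 7 genes were lower: Rpl13a, Rpl14, Rpl24 and Rpl27 did not pass (adjusted p in limma 0.058 to 0.0743) and Rps24 did (limma adjusted p = 0.0498). Rps27l and Rpl35a passed in all 27 settings, while Rpl27 passed in 8 and Rpl13a in 10.

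Rps27l, a paralog of Rps27 known as a target of p53, read 3021, 2637 and 3084 in LD, 2523, 2902 and 1721 in HD, 1664, 1521, 1588 and 1524 in FBS, and 1751, 1823, 1703 and 1628 in RA/Fsk. Both treated groups lay below LD and overlapped each other, and HD culture 4 was near them. Rps27l fell by 0.75 with RA/Fsk (SE 0.15, limma adjusted p = 0.00369) and by 0.88 with FBS (SE 0.15, limma adjusted p = 0.000194). The difference between the treatments was 0.13 ± 0.13 (limma adjusted p = 0.593), with a 95% interval of -0.15 to 0.42.

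Rpl22, an RNA-binding protein of the large subunit, had the opposite arrangement. It read 7303, 6096 and 6425 in LD, 6925, 5333 and 5867 in HD, 3338, 3603, 3507 and 3815 in FBS, and 6560, 5861, 6153 and 7584 in RA/Fsk. RA/Fsk cultures covered the LD range and FBS lay far below. The RA/Fsk difference from LD was -0.02 ± 0.13 (limma adjusted p = 0.961), with a 95% interval of -0.29 to 0.25, and that of FBS was -0.89 ± 0.13 (limma adjusted p = 5.55e-05).

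Set against each other, RA/Fsk was higher than FBS for 34 of 42 genes (limma; 8.27% of all probe sets were higher) and lower for none, also at an unadjusted p, while 10.1% of all were lower, with a median of 0.57 for the members. In the same 42 genes the cultures did not overlap for 34, against 10.3% of probe sets. The largest differences were those of Rps4x-ps9 (1.13, limma adjusted p = 6.8e-05), Rpl35 (0.91), Rpl22 (0.87) and Rpl3 (0.86). The 8 that did not pass were Rpl3l, Rpl5, Rpl30, Rpl41, Rplp1l3, Rps2-ps1, Rps24 and Rps27l. Rps24 differed by 0.19 (limma adjusted p = 0.497). The probe sets that name Rpl5, Rpl30 and Rps24 together with copies did pass, at 0.67, 0.65 and 0.58. Their adjusted p-values in limma were 0.000263, 0.0006 and 0.00288.

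High-density and low-density progenitors could not be told apart gene by gene. None of the 42 genes passed in limma in either direction, where 0.423% of all probe sets were lower and 0.435% higher. At an unadjusted p under 0.05, 6 of the 42 were lower and none higher. Of all 8740 probe sets, 667 were lower and 542 higher at that threshold. The median was -0.16, beside -0.08 over all probe sets. HD lay wholly below LD for 12 of the 42 genes, a larger share than the 11.9% of all probe sets. It lay wholly above LD for 1 gene, Rplp1l3, against 683 of all 8740 probe sets. The largest fitted differences were in Rpl17, at -0.71 ± 0.19 (limma adjusted p = 0.106), Rpl30 at -0.45, Rpl27a at -0.42 (limma adjusted p = 0.163), and Rps29 and Rpl23 at -0.38 each. On its own probe set Rpl17 read 311, 265 and 225 in LD and 181, 149 and 152 in HD, so its groups did not overlap. The 2 probe sets that name Rpl17 together with copies gave -0.06 and -0.01. Those that name Rpl30 and Rpl27a together with copies gave -0.07 and -0.04. Further probe sets of Rps29 and Rpl23 gave -0.40 and -0.26. On the other side, Rplp1l3 at 0.98 and Rps2-ps1 at 0.22 were at the low end of the scale, and Rps10 differed by 0.13 and Rps24 by 0.04.

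Measured from HD instead of LD, the FBS fall had a median of -0.74 (60.1% of the HD level, beside 0.03 over all probe sets), and 35 genes were lower in limma, against 9.7% of probe sets, while none was higher, also at an unadjusted p, against 11.3%. Centring each array on its median moved the median of all probe sets by 0.19 for this comparison, and that of the members to -0.93. With quantile normalization the members' median was -0.46 and 27 genes were lower. Rps4x-ps9 fell by 1.44, Rps10 by 1.09, and Rpl7a and Rpl3 by 1.05 each. Rps10, a protein of the small subunit head, read 5355, 5503 and 5653 in HD, 6022, 4953 and 4247 in LD, 2773, 2400, 2565 and 2639 in FBS, and 4309, 3431, 4216 and 3504 in RA/Fsk. Its FBS cultures were at 47.1% of the HD level, and RA/Fsk overlapped LD but not HD. All told, 33 of the 42 genes were lower in FBS than in each of LD, HD and RA/Fsk. The same joint share was not counted over all probe sets. It can be at most 8.27%, the share that was higher in RA/Fsk than in FBS.

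Between RA/Fsk and HD the median was -0.17, beside 0.07 over all probe sets, with 4 genes lower in limma, against 5.32% of probe sets, and none higher, also at an unadjusted p, against 4.85%. They were Rps24 (-0.58, limma adjusted p = 0.0462), Rps3 (-0.53, 0.013), Rps10 (-0.52, 0.0192) and Rpl14 (-0.38, 0.0488). The probe set that names Rps24 together with a copy gave -0.25 and did not pass (limma adjusted p = 0.285). A further probe set of Rps3 gave -0.75 and passed (limma adjusted p = 0.00135). These 4 genes, a small count, are 9.52% of the members, beside 5.32% of all probe sets. The count was 1 without HD culture 2 or without RA/Fsk culture 2 or 4, and 2 without HD culture 1 or 4, LD culture 3 or any single FBS culture.

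Over the groups, FBS had the lowest mean for 40 of 42 genes and LD the highest for 36. The order from high to low was LD, HD, RA/Fsk and FBS for 29 genes, and LD, RA/Fsk, HD and FBS for 7. The step from HD to RA/Fsk passed for 4 genes only and that from LD to HD for none, so the order of these neighbours is not settled gene by gene. The fitted difference was below 0 for 37 of the 42 genes in HD against LD, beside 5169 of all 8740 probe sets. In RA/Fsk against HD it was below 0 for 34 of the 42, beside 3789 of all 8740.

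Within a group, the level of the members differed between cultures, and also between arrays of one culture. Medians of the members, relative to the LD mean, were 0.15, -0.04 and -0.10 in LD, and culture 1 of LD was the highest of all cultures for 25 of 42 genes. The 2 arrays of that culture gave 0.26 and 0.03, so differences between cultures and between arrays cannot be told apart there. In RA/Fsk they were -0.19, -0.53, -0.28 and -0.52, so cultures 1 and 3 lay near HD and cultures 2 and 4 lower. The log ratio of the 5' to the 3' GAPDH probe sets, a sign of RNA integrity, was -0.11, -0.47, -0.39 and -0.19 in these RA/Fsk cultures, and its group means were -0.33 in LD, -0.06 in HD, -0.06 in FBS and -0.29 in RA/Fsk. With that ratio as a covariate, 38 genes were lower in FBS than in LD with a median of -1.03, and 11 in RA/Fsk than in LD with a median of -0.39. Log2 signals of the antisense control probe sets were 5.12 to 5.40 in LD and 4.84 to 5.02 in FBS, and those for 5S ribosomal RNA 7.72 to 9.28 and 6.91 to 7.70, so both were lower in FBS without overlap. HD was at 4.78 to 5.12 and 6.59 to 7.62, and RA/Fsk at 4.95 to 5.61 and 6.95 to 8.33. The part of these signals in the result was not tested. The FBS cultures were close together, between -0.97 and -0.88.

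FBS culture 3 is the mean of 2 arrays that differed. The members' median relative to LD was -1.13 on array 3 and -0.61 on array 3r, where the labels do not say what the r means, a difference of -0.52 beside 0.16 over all probe sets. In the other 5 pairs of arrays with one number the members' median differed by -0.04 to 0.23, the 0.23 in LD culture 1. Array 3r was still below every LD array for 38 of 42 genes, but below every RA/Fsk array for 23, against 39 on array 3. With 3r alone for this culture, 25 genes rather than 34 were higher in RA/Fsk than in FBS, and 3 rather than 10 were lower in RA/Fsk than in LD.

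After each group's mean was taken out, the deviation of a member followed the mean of the other members with a median Pearson correlation of 0.70 (0.13 to 0.92) over 14 cultures, and 28 of the 36 standard names were above 0.5. For 4694 other genes the median was 0.08, and 12.4% were above 0.5. These points share arrays, scaling and RNA preparations, and the correlations are a description. The genes outside the rule whose level over the 14 cultures was most like the member mean were Rack1 (0.98), Rpsa (0.97), Dnph1 (0.97), Mrto4 (0.96) and Tuba1b (0.96). Rack1 and Rpsa encode proteins of the small subunit whose names lie outside the naming rule, and Mrto4 a ribosome assembly factor.

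Rpsa fell with FBS by 0.91 (limma adjusted p = 9.13e-05) and Rack1 by 1.07 (limma adjusted p = 1.17e-05). Their RA/Fsk differences were -0.27 and -0.36, which did not pass. The lists below are read against all probe sets, of which 12.3% were lower and 13.2% higher with FBS, and 3.54% and 4.71% with RA/Fsk. Of 13 measured nucleolar and biogenesis factors, 9 (69.2%) fell with FBS, and the median was -0.88. Ubtf and Nol3, at 0.05 and 0.24, were among the 4 that did not pass. The largest falls were in Dkc1, the pseudouridine synthase of ribosomal RNA (-1.68, limma adjusted p = 1.9e-07), Ncl, the nucleolar protein nucleolin (-1.18, limma adjusted p = 4.52e-06), and Nolc1 (-1.14, limma adjusted p = 3.43e-05). Polr1d, a subunit of RNA polymerases I and III, fell with FBS by 0.88 but rose with RA/Fsk by 0.53 (limma adjusted p = 0.0333). With RA/Fsk, Dkc1, Ncl, Nop58 and Gnl3 fell, by 0.58, 0.64, 0.70 and 0.58.

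Of 4 elongation factors, 3 (75%) fell with FBS, Eef1g by 0.97, Eef2 by 0.72 and Eef1a1 by 0.59. Of 17 initiation factors, 8 (47.1%) fell and 1 rose with FBS, with a median of -0.62. Eif2b1, of the factor that reloads initiation factor 2 with GTP, fell with FBS by 0.66 and rose with RA/Fsk by 0.55 (limma adjusted p = 0.00608). Eif4a2, a helicase paralog, was the one that rose with FBS, by 0.70 (limma adjusted p = 0.00493). Of 5 aminoacyl tRNA synthetases, 3 (60%) fell with FBS, Kars1 by 0.62, Vars1 by 0.63 and Farsa by 0.56.

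The ribosome of mitochondria, whose proteins have separate nuclear genes, had a median FBS difference of -0.19. Of its 14 measured genes, 3 (21.4%) fell with FBS and 1 (7.14%) rose, beside 12.3% and 13.2% of all probe sets. Mrpl23 fell by 1.38 (limma adjusted p = 3.05e-06), Mrpl58 by 1.05 and Mrpl38 by 0.50, and Mrpl13 rose by 0.42. No test compared this list with the cytoplasmic one.

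Of 7 other messenger RNAs known to carry the TOP motif, 6 fell with FBS. Of these, Rack1, Eef1a1, Eef1g and Eef2 were counted above, and the further ones were Hnrnpa1 (-1.65, limma adjusted p = 1.23e-06) and Nap1l1 (-1.34, limma adjusted p = 9.76e-05). Vim, the intermediate filament vimentin, was the exception at 0.33 (limma adjusted p = 0.216). Of 13 regulators of ribosome synthesis, 3 (23.1%) fell with FBS, beside 12.3% of all probe sets: Eif4ebp1, the translation repressor controlled by TOR, by 1.55, Myc by 0.93 and Akt1 by 0.49. Mtor and Rps6kb1 differed by -0.20 and 0.06 and did not pass. Of 16 cell cycle genes, 13 (81.2%) fell with FBS and 2 rose, with a median of -1.43, and with RA/Fsk 5 fell and 1 rose, with a median of -0.74. Dut and Mcm6 fell by 2.39 and 2.03 with FBS, and Ccng1 rose by 0.75 (limma adjusted p = 0.00804). The largest change of this list was in Ccnd2, which rose 7.99-fold with FBS (limma adjusted p = 2.72e-06) and by 3.70 on the log2 scale with RA/Fsk. Their part in the ribosomal protein result was not tested.

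**Figure D4:**
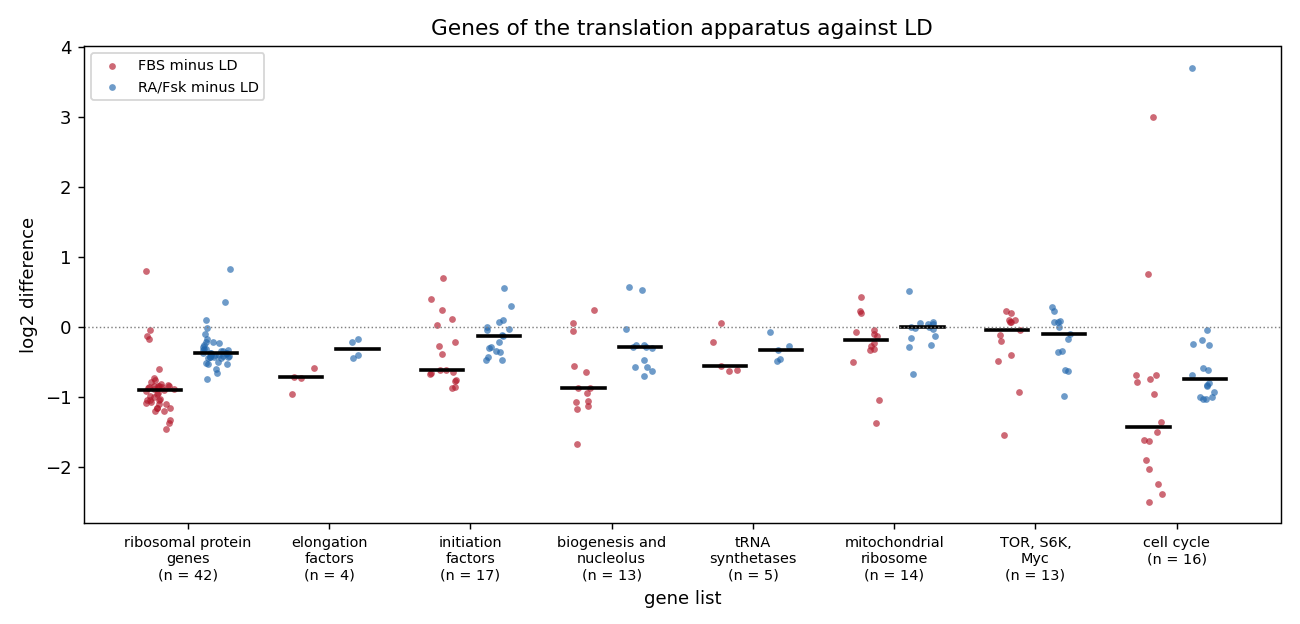
Log2 difference from LD of single genes (points) with FBS (red) and RA/Fsk (blue), by gene list, with the median of each list as a bar. The number of genes measured is under each name. The ribosomal protein genes have medians of -0.91 and -0.38, and the mitochondrial ribosome -0.19 and -0.01.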

How the data were processed

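The values are probe set intensities that were deposited by the authors for 20 rat Affymetrix arrays of total RNA, on a linear scale. Their software and its version were not given in the sources used here. Of 8799 probe sets, 59 controls were left out, and 8740 were tested. Gene names came from GEO's platform annotation: 7006 probe sets have 1 symbol, 308 several and 1426 none. For 6985 of the 7006 the gene identifier was found in RefSeq.

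A pseudocount of 4.99 (10% of the median positive intensity) was added and log2 taken, so fold changes of dim genes are understated. Arrays with one label number were averaged. One limma fit (version 3.58.1, R 4.3.3; lmFit, eBayes with intensity trend) held all 4 groups, without a block, with 10 residual and 6.13 prior degrees of freedom, and p-values were adjusted by Benjamini-Hochberg over all probe sets. It was tested on simulated data. Same-numbered deviations of LD and RA/Fsk correlated by 0.33, 0.16 and 0.11, so these numbers may be pairs. The reported fit and its p-values do not use such a pairing, which enters only in the alternative with the replicate block. For no other 2 groups were all over 0.1.

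The members and gene lists were chosen with earlier results of these data known. Genes were named by largest and smallest difference in each comparison, by failing to pass where most did, as paralogs, and in lists by smallest adjusted p. A few more, such as Rplp0, Rps6 and Rps3, were named after their values were seen. Alternatives were other pseudocounts, a filter on dim probe sets, quantile, median and reference scaling, all probe sets of a gene averaged, arrays kept apart, array 3r alone, no trend, RNA integrity as a covariate, the block, and each culture left out. The number of arrays limits the precision.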

Additional observations from a re-analysis of the deposited data

Results flagged for a closer look

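In groups of 4 cultures, a culture was picked out when its gap to the nearest of the others was a large share of the group's range, by Dixon's 95% critical value, which chance passes in about 1 group in 20. Of 84 tests (42 genes in FBS and in RA/Fsk), 5 passed. In RA/Fsk culture 3, Rpl14 read 1869 against 1420 to 1486 in the others, a gap of 0.834 of the range, and Rpl7a read 8547 against 5742 to 6012, a gap of 0.885. In RA/Fsk culture 1, Rpl36 read 3661 against 2720 to 2851 (0.842), and Rps23 read 8953 against 6106 to 6491 (0.84). In FBS culture 1, Rps6 read 4230 against 3542 to 3649 (0.831). In all 5 the culture apart was the highest of its group.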

How the results depend on the processing

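No difference that passed the test changed sign under the 26 alternatives. Some that did not pass crossed 0, such as Rplp1l3 in FBS against LD (-0.14 to 1.18) and Rpl22 in RA/Fsk against LD (-0.09 to 0.21). The count lower in FBS than in LD was 32 to 38 in all of them, and 36 to 38 with a culture left out. With quantile normalization the members' median was -0.56 for FBS against LD, -0.20 for RA/Fsk against LD, 0.35 for RA/Fsk against FBS and -0.46 for FBS against HD, and it was -0.93 for the last with median centring. The count lower in RA/Fsk than in LD, 10 as reported, was 4 with quantile normalization or median centring, 2 without the intensity trend, 3 with array 3r alone, 22 without the dimmer 50% of probe sets, 19 with arrays as samples, and 2 to 16 with a culture left out. The count lower in RA/Fsk than in HD, 4 as reported, was 2 with quantile normalization, reference scaling or array 3r alone, 1 without the trend or with RNA integrity as a covariate, and 1 to 4 with a culture left out. With arrays as samples, 2 genes were lower in HD than in LD. Without the 6 copies and paralogs, an alternative chosen after seeing the data, the median for FBS against LD was -0.96. With the replicate block on the label number the counts were 7 for RA/Fsk against LD, 37 for FBS against LD, 34 for RA/Fsk against FBS, 35 for FBS against HD, 5 for RA/Fsk against HD and 0 for HD against LD. The pairing moved no count by more than 1.5 times. The causes of these shifts were not tested. Intensity near the low end of the scale limits Rplp1l3 and Rps2-ps1.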
